A study of Mus musculus with 3 samples.

Results

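Neurons that migrate and extend axons rebuild their microtubules and growth cones, and 10 genes of this machinery are described here: Dcx, Dclk1, Stmn1, Stmn2, Stmn3, Tuba1a, Tubb2b, Tubb3, Gap43 and Nefl. They were chosen by name for their known roles, with earlier results from these data known. All 10 were found among the 31053 genes counted. The study sequenced the RNA of single somatostatin (SST) neurons of mouse neocortex at embryonic day 16.5 (E16.5) and at postnatal days 1 (P1) and 5 (P5), to follow how long-range projection neurons and interneurons part during development. Each age is 1 library, made from the pooled tissue of 6 animals for E16.5 and of 3 for each of P1 and P5. Cells with green fluorescent protein (GFP) were sorted by flow cytometry and captured with the 10x Genomics method.

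The animals of every library were of the strain Sst-Cre; RCEloxP and carried 1 Sst-Cre and 1 RCE allele, and the labels give no treatment. Cre recombinase is made where Sst is transcribed, and recombination switches on GFP from the RCE reporter for good. GFP thus marks cells that have made Cre at some time, whether or not they hold Sst mRNA when sorted. Tissue of all ages was digested with pronase, with trypsin added for P5 alone, and a Percoll step was used for P1 and P5 but not for E16.5. Age, library, animals and dissociation cannot be told apart in this design.

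The E16.5 library holds 25638779 unique molecular identifiers (UMIs, 1 for each captured mRNA molecule) in 4478 cells. The P1 library holds 15654107 UMIs in 4440 cells, and the P5 library 13429055 UMIs in 3406 cells. Cells with more than 700 detected genes and under 10% mitochondrial UMIs were kept, which left 3952, 2501 and 2980 cells in the order of age. Of the P1 cells, 56.3% were kept, against 88.3% at E16.5 and 87.5% at P5. The middle kept cell held 5577 UMIs in the E16.5 library, 3293 in P1 and 3935.5 in P5, with mitochondrial medians of 4.05%, 5.92% and 4.21%. The P1 counts were also made with another version of Cell Ranger (3.0.2, against 3.1.0). Libraries shared few cell barcodes: 3 between E16.5 and P1, 1 between E16.5 and P5, and 6 between P1 and P5.

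Microtubules are polymers of alpha- and beta-tubulin, and in young neurons their growth and shrinkage are set by proteins that bind the polymer, such as doublecortin, or the free dimers, such as stathmins. A migrating interneuron pushes a branched leading process forward and then pulls its nucleus along microtubules, and a growing axon is steered by a growth cone rich in dynamic microtubules and actin. As neurons settle, they replace many of the early tubulin isotypes and binding proteins with those of stable axons and dendrites.

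Kept cells were read in 3 groups. Nos1 cells held at least 1 UMI of Nos1, a marker of the long-range projection neurons. Sst-high cells held at least 5 Sst UMIs and 0 Nos1 UMIs. Sst-silent Lhx6 cells held at least 1 UMI of Lhx6, a transcription factor of this lineage, and 0 Sst UMIs. At E16.5 the groups held 67, 1920 and 776 cells, at P1 434, 757 and 491, and at P5 547, 896 and 559, with 2, 26 and 14 cells in both the Nos1 and the Sst-silent group.

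Depth differed between the groups, and the Nos1 group is small at the embryonic age. The median was 7863, 3704.5 and 3073 UMIs in Nos1 cells across E16.5, P1 and P5, 6457, 4557 and 5542.5 in Sst-high cells, and 4979.5, 3117 and 3316 in Sst-silent cells. The median mitochondrial share was 3.80%, 4.67% and 3.25% in Nos1 cells, 3.997%, 6.06% and 3.90% in Sst-high cells and 4.06%, 6.57% and 4.97% in Sst-silent cells, so cell quality may differ between the groups. A single Nos1 UMI put 38 of the 67 E16.5 Nos1 cells in their group, 126 of 434 at P1 and 81 of 547 at P5. The level of a gene is its UMIs summed over the cells of a group in a library, per 1000000 UMIs of that group (counts per 1000000, CPM). Levels carry exact 95% Poisson intervals, which cover the error of counting and nothing of the variation between animals, since no age has a replicate. Ratios are log2 of 2 levels, each with 1 CPM added, with the exact interval of a ratio of counts, and no test was made.

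Markers show what the groups hold. Lhx6 had a UMI in 73.1% of Nos1 cells in the embryo, then 82.9% at P1 and 71.7% by P5. Nos1, Sst and Lhx6 set the groups, so they are left out of the marker sums. The other 6 markers of long-range neurons (Chodl, Npy, Pcp4, Cygb, Crhbp and Tacr1) summed to 13024, 26862 and 39254 CPM in Nos1 cells across E16.5, P1 and P5. In Sst-high cells they summed to 2624, 2530.1 and 2108 CPM, and in Sst-silent cells to 224, 517 and 766 CPM, with Npy the most abundant in each group. Npy alone stood at 12365.5, 24679 and 34619 CPM in Nos1 cells, so the sums there mostly follow that gene. Chodl and Tacr1 were at 0 in Sst-silent cells at E16.5. The other 7 markers of SST interneurons summed to 1518, 3104 and 2680.3 CPM in Nos1 cells, 2454, 4421 and 4339.7 CPM in Sst-high cells and 2335, 4284 and 2929 CPM in Sst-silent cells, where Maf was the most abundant.

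Markers of other cell types were read in the same way. The 6 markers of microglia summed to 0.51 to 3.42 CPM over the 9 groups, the 5 of endothelium and pericytes to 1.05 to 4.03 CPM, the 5 of blood to 0 to 2.62 CPM and the 5 of cycling precursors to 3.37 to 10.4 CPM. The 6 markers of radial glia and astrocytes summed to 2.64 to 23.6 CPM, the highest in E16.5 Nos1 cells, with Gfap at 0 throughout. Of the oligodendrocyte markers, Mbp stood at 16.01 to 52.0 CPM and Sox10 at 0. The 7 markers of caudal or Meis2-type interneurons summed to 192, 107 and 33.1 CPM in Nos1 cells, 218, 192 and 189 in Sst-high and 55.4, 46.7 and 50.5 in Sst-silent cells, with Meis2 or Nr2f2 leading and Vip at 0.

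The list of excitatory neurons set Nos1 cells apart at E16.5 and P1. Its 9 markers summed to 1375, 652 and 252 CPM in Nos1 cells, 437, 316 and 124 in Sst-high cells and 475, 508 and 301 in Sst-silent cells, with Bcl11b, which SST neurons also express, the most abundant. Without Bcl11b, the other 8 summed to 704, 183 and 6.62 CPM in Nos1 cells, against 7.64, 7.62 and 4.63 in Sst-high cells and 18.6, 29.4 and 9.60 in Sst-silent cells. Neurod6, a gene of excitatory neurons, had a UMI in 15 of the 67 E16.5 Nos1 cells and in 17 of the 434 at P1. Changes from E16.5 to P5 in Nos1 cells are therefore also given without cells with such markers where that brought a value within the limit.

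Between E16.5 and P5, the members split into those that fell and those that rose, and most moved the same way in the 3 groups. A difference is counted when it passes 1.5-fold (0.58 on the log2 scale) and is set beside the share of all genes, with at least 50 UMIs over both libraries, that did so. In Nos1 cells, 5 of the 10 members were lower at P5 (24.3% of 7040 genes were) and 3 were higher (27.6% of genes). In Sst-high cells, 6 were lower (26% of 11407 genes) and 4 higher (27%). In Sst-silent cells, 4 were lower (28.5% of 9294 genes) and 3 higher (27.1%). Most members are abundant, and among genes of at least 500 CPM on average 25.3%, 27.3% and 25.6% were lower and 23.4%, 22.8% and 24.1% higher in the 3 groups. The median log2 ratio of the 10 members was -0.42, -0.66 and 0.05 in the 3 groups, against 0.03, -0.01 and -0.04 over all genes. In Nos1 cells the nearest members on either side of the limit were Stmn2 (0.59) and Stmn3 (0.53). Together the 10 genes made up 2.41% of the UMIs of kept cells in the embryo, then 1.31% at P1 and 1.43% by P5.

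**Figure D1:**
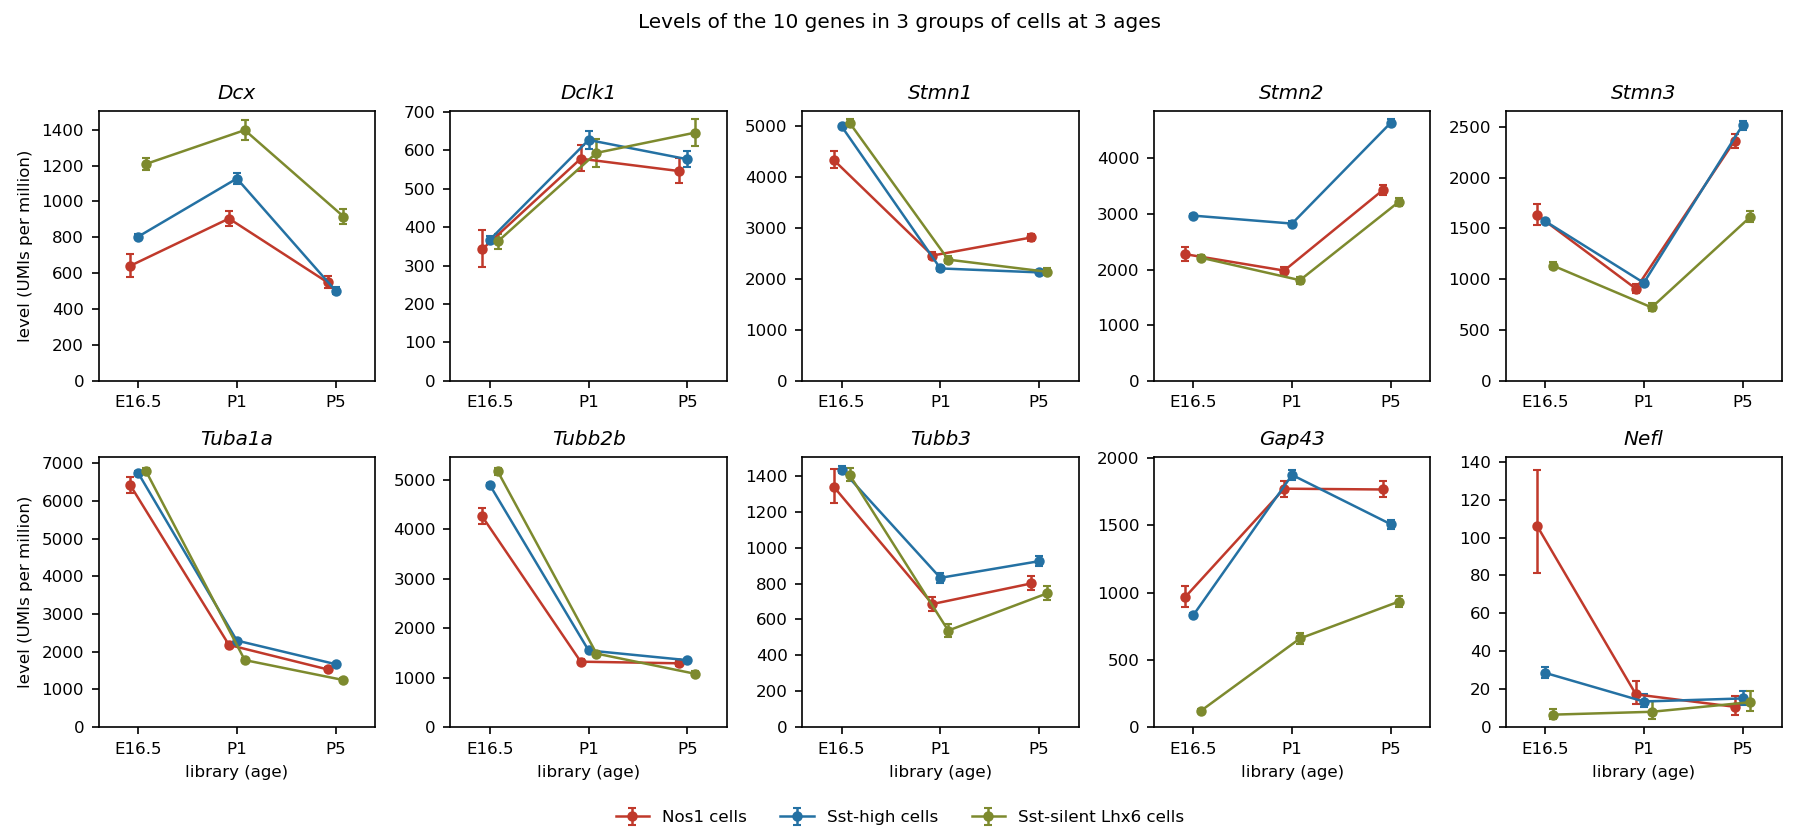
Levels of the 10 genes, in CPM of each group, against the age of the library, with 1 panel per gene and 1 line per group of cells; bars are exact 95% Poisson intervals of the counts. Tuba1a falls from between 6416 and 6785 at E16.5 to between 1247 and 1669 at P5, and Gap43 in Sst-silent Lhx6 cells climbs from 123 to 933.

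The scaling of the libraries bears on these counts. With TMM factors in place of CPM, the median log2 ratio of all genes went from -0.01 to -0.19 in Sst-high cells, from -0.04 to -0.17 in Sst-silent cells and from 0.03 to 0.13 in Nos1 cells (0.10 with median-of-ratios factors). Of the genes past the limit in Sst-high cells, 50.9% were higher at P5 with CPM and 40.1% with TMM. The members' directions at P5 against E16.5 were the same under both. Dclk1, Stmn2 and Stmn3 in Sst-high cells came within the limit with TMM (0.46, 0.46 and 0.49), Stmn1 in Nos1 cells did so (-0.52), and Stmn3 in Nos1 cells passed it (0.63).

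The doublecortin family comes first. Dcx (ENSMUSG00000031285, chrX:143855842-143933311, minus strand, genome build GRCm38 with GENCODE M21 genes) encodes doublecortin, which binds along the microtubule wall and stabilises it in migrating neurons. In Sst-silent Lhx6 cells its level was 1209, 1398 and 916 CPM at E16.5, P1 and P5. In Sst-high cells it was 804, 1128 and 502 CPM, and in Nos1 cells 641, 905 and 549 CPM. In each group the P1 level was the highest and the P5 level the lowest of the 3 ages, and the Sst-silent group stood above the other groups in each library.

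From E16.5 to P5, Dcx fell in Sst-high cells, with a log2 ratio of -0.68 (-0.74 to -0.62). In Nos1 cells the ratio was -0.22 (-0.40 to -0.05) and in Sst-silent cells -0.40 (-0.48 to -0.32), both within the 1.5-fold limit. With CPM, the step from P1 to P5 took Dcx past the limit in each group. The log2 ratios were -0.72, -1.17 and -0.61 in Nos1, Sst-high and Sst-silent cells. Over all genes the medians of this step were -0.17, -0.13 and -0.10. Scaled by the TMM factors of P1 and P5, the Nos1 (1.084 and 0.967) and Sst-silent (1.07 and 1.023) values come within the limit. The step from E16.5 to P1 did not pass it with CPM, at 0.50, 0.49 and 0.21. Steps to or from P1 were not recomputed under the alternatives. Ordered by level, the highest of the 9 Dcx values is that of Sst-silent cells at P1. The lowest is that of Sst-high cells at P5, 2.78-fold apart. Of the 8 pairs of neighbours in that order, 3 had overlapping intervals: Sst-silent cells at P5 with Nos1 cells at P1, Nos1 cells at E16.5 with Nos1 cells at P5, and the latter with Sst-high cells at P5.

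Dclk1 (ENSMUSG00000027797, chr3:55242364-55539068, plus strand) encodes a kinase with doublecortin domains at its start. It had the narrowest range of the 10 genes, 1.89-fold over the 9 levels. Its level was 342, 578 and 546 CPM in Nos1 cells across E16.5, P1 and P5, 367, 627 and 576 in Sst-high cells and 362, 593 and 646 in Sst-silent cells. The 3 embryonic values lie below the 6 postnatal ones without overlap of the intervals between the lowest postnatal and the highest embryonic value. Of the 8 neighbouring pairs, 7 overlapped. Within E16.5 and within P1 the intervals of the groups overlapped, and at P5 the Sst-silent level lay above those of the other groups.

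With CPM, the rise of Dclk1 took place before P1. From E16.5 to P1 its log2 ratio was 0.76, 0.77 and 0.71 in Nos1, Sst-high and Sst-silent cells, and from P1 to P5 it was -0.08, -0.12 and 0.12. Over all genes the medians from E16.5 to P1 were 0.15, 0.15 and 0.10. Scaled by the TMM factors of E16.5 and P1, the Sst-high (0.868 and 1.048) and Sst-silent (0.936 and 1.07) values of that step come within the limit. At P5 over E16.5 the Dclk1 ratio was 0.67, 0.65 and 0.83 with CPM, so Dclk1 rose in each group while Dcx did not rise in any. In Nos1 cells the Dclk1 ratio came within the limit under 5 of the 17 alternatives that recompute it, to 0.23 at the lowest, with at least 2 Nos1 UMIs per cell, and to 0.46 without cells with markers of other types. The annotation places several unnamed transcripts on the same strand within Dclk1, and reads from them would not be told apart where they overlap its exons.

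Stathmins bind free tubulin dimers and so favour the shrinkage of microtubules. Stmn1 (ENSMUSG00000028832, chr4:134468320-134473843, plus strand) encodes the soluble stathmin. Its level was 5068, 2379.7 and 2141 CPM in Sst-silent cells across E16.5, P1 and P5, and 4996, 2207 and 2129 CPM in Sst-high cells. In Nos1 cells it was 4336, 2460 and 2814 CPM. The embryonic level was the highest of the 3 ages in each group, and the P1 and P5 levels of the Sst-high and Sst-silent groups lie close together.

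Stmn1 fell in all 3 groups from E16.5 to P5, by less in Nos1 cells. The log2 ratio was -0.62 (-0.69 to -0.56) in Nos1 cells, -1.23 (-1.26 to -1.20) in Sst-high cells and -1.24 (-1.29 to -1.20) in Sst-silent cells. The Nos1 value lies near the limit and came within it under 9 of the 17 alternatives, among them cells thinned to 2000 UMIs (-0.34), cells with other-type markers left out (-0.36) and Nos1 cells that had to hold Lhx6 (-0.40). The difference between the groups was not tested. Within the P5 library Nos1 cells had more Stmn1 than Sst-high cells, with a log2 ratio of 0.40 (0.36 to 0.45), under the 1.5-fold limit.

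Stmn2 (ENSMUSG00000027500, chr3:8509360-8561606, plus strand) encodes a stathmin that a lipid anchor holds on the membranes of growth cones and axons. Its level was 2969, 2826 and 4637 CPM in Sst-high cells across E16.5, P1 and P5. In Nos1 cells it was 2276, 1981 and 3428 CPM and in Sst-silent cells 2212, 1809 and 3214 CPM. Sst-high cells stood highest at every age, and in each group the P5 level was above the other 2 ages. A single pair of neighbours in the order of the 9 levels overlapped, Nos1 and Sst-silent cells at E16.5.

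Stmn3 (ENSMUSG00000027581, chr2:181306459-181314500, minus strand) encodes another membrane-anchored stathmin. Its level was 1631, 906 and 2363 CPM in Nos1 cells across E16.5, P1 and P5, 1571, 965 and 2515 CPM in Sst-high cells and 1134, 723 and 1614 CPM in Sst-silent cells. In each group the lowest of the 3 ages was P1 and the highest P5. Sst-silent cells had the lowest level in each library.

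Both membrane-anchored stathmins rose after P1 and not before. From E16.5 to P1 the log2 ratio of Stmn2 was -0.20, -0.07 and -0.29 in Nos1, Sst-high and Sst-silent cells, and Stmn3 fell, with -0.85, -0.70 and -0.65. From P1 to P5, Stmn2 rose by 0.79, 0.71 and 0.83 and Stmn3 by 1.38, 1.38 and 1.16. Over the whole interval, P5 over E16.5, Stmn2 stood at 0.59, 0.64 and 0.54 and Stmn3 at 0.53, 0.68 and 0.51, values on either side of the limit. With at least 2 Nos1 UMIs per cell, Stmn2 in Nos1 cells came to 0.36. Stmn1, in contrast, fell before P1 (-0.82, -1.18 and -1.09) and stayed within the limit from P1 to P5 (0.19, -0.05 and -0.15). The P1 values rest on the library of which 56.3% of cells were kept. In the cells removed there, Stmn3 stood at 1251 CPM against 879 CPM in all kept cells, and Stmn1 at 690 against 2314 CPM.

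Tubulins form the wall of the microtubule. Tuba1a (ENSMUSG00000072235, chr15:98949837-98953703, minus strand) encodes the alpha-tubulin isotype that is most used in young neurons. Its level was 6416, 2179 and 1529 CPM in Nos1 cells across E16.5, P1 and P5, 6739, 2294 and 1669 CPM in Sst-high cells and 6785, 1777 and 1247 CPM in Sst-silent cells. The level was lower at each later age in each group, and every embryonic value lies above every postnatal one. Within libraries the groups differed by little at E16.5, where Sst-silent and Sst-high cells had overlapping intervals, and the other 7 neighbouring pairs did not overlap.

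Tubb2b (ENSMUSG00000045136, chr13:34126748-34130466, minus strand) encodes a beta-tubulin isotype of developing brain. Its level was 4265, 1322 and 1289 CPM in Nos1 cells across E16.5, P1 and P5, 4892, 1549 and 1353 CPM in Sst-high cells and 5168, 1485 and 1077 CPM in Sst-silent cells. Most of the fall lies before P1. From E16.5 to P1 the log2 ratio was -1.69, -1.66 and -1.80 in the 3 groups, and from P1 to P5 it was -0.04, -0.20 and -0.46.

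Tubb3 (ENSMUSG00000062380, chr8:123411424-123422015, plus strand) encodes the beta-tubulin isotype found mainly in neurons. Its level was 1339.7, 686 and 801 CPM in Nos1 cells across E16.5, P1 and P5, 1436, 832 and 925 CPM in Sst-high cells and 1407, 538 and 745 CPM in Sst-silent cells. The lowest of the 3 ages was P1 in each group. Intervals of the 3 groups overlapped at E16.5, and 5 of the 8 neighbouring pairs did so over all 9 levels.

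From E16.5 to P5 the 3 tubulins fell in each group. Tuba1a had log2 ratios of -2.07, -2.01 and -2.44 in Nos1, Sst-high and Sst-silent cells, Tubb2b -1.73, -1.85 and -2.26 and Tubb3 -0.74, -0.63 and -0.92. Tuba1a and Tubb2b stayed past the limit under each of the 17 alternatives. Those that redefine Nos1 cells alone cannot move the ratios of the other groups, so fewer bear on them. Tubb3 in Nos1 cells did not: 4 alternatives brought it within, to -0.33 when cells with other-type markers were left out and to -0.35 when Nos1 cells had to hold Lhx6. In Sst-high cells it came to -0.54 when that group was set at 10 or more Sst UMIs.

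The tubulin counts carry a doubt that these files cannot settle. Cell Ranger counts reads that align to 1 gene alone, and tubulin genes have close relatives, so reads from shared stretches are lost or placed on either. Tubb2a, the closest relative of Tubb2b, had 31658, 8119 and 5582 UMIs in the 3 libraries, Tuba1b had 7345, 7300 and 4827, and Tuba1c had 3, 3 and 2. In the annotation, Tubb3 overlaps a read-through gene, Gm20388, which had 0 UMIs in each library, and Tuba1a overlaps Gm49450, which is not in the gene list of the files.

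Gap43 (ENSMUSG00000047261, chr16:42248442-42340651, minus strand) encodes a membrane protein of growth cones that calmodulin binds. The study lists it among the genes of long-range neurons and in a developmental module, both drawn from these libraries, so its pattern in Nos1 cells is no independent evidence. In Nos1 cells its level was 969, 1774 and 1767 CPM at E16.5, P1 and P5, and in Sst-high cells 833, 1876 and 1509 CPM. In Sst-silent Lhx6 cells it was 123, 659 and 933 CPM, the lowest of the 3 groups in each library. The embryonic Sst-silent value, with an interval of 112 to 134 CPM, lies far below the other 8, and Gap43 spans a 15.3-fold range.

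From E16.5 to P5, Gap43 rose in each group. The log2 ratio was 2.92 (2.78 to 3.07) in Sst-silent cells, 0.87 (0.74 to 1.00) in Nos1 cells and 0.86 (0.82 to 0.90) in Sst-high cells. The Nos1 value came within the limit (0.49) with at least 2 Nos1 UMIs per cell, and to 1.15 without the 1 E16.5 cell with the most Nefl UMIs. Most of the rise came by P1, with 0.87, 1.17 and 2.41 in Nos1, Sst-high and Sst-silent cells. With CPM, each group stayed within the limit from P1 to P5 (0.00, -0.31 and 0.50). Scaled by the median-of-ratios factors of P1 and P5 (1.065 and 0.992), the Sst-silent value of that step passes the limit. Neighbours in the order of the 9 Gap43 levels overlapped in 2 of 8 pairs. These were Nos1 cells at P1 with Nos1 cells at P5, and Nos1 cells at E16.5 with Sst-silent cells at P5.

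Nefl (ENSMUSG00000022055, chr14:68083863-68089095, plus strand) encodes the light neurofilament chain, part of the intermediate filaments that fill axons. Its counts were low. In Nos1 cells the level was 106, 17.3 and 10.7 CPM at E16.5, P1 and P5, from 63, 34 and 21 UMIs. In Sst-high cells it was 28.6, 13.5 and 15.1 CPM, from 412, 62 and 75 UMIs, and in Sst-silent cells 6.56, 8.07 and 13.1 CPM, from 25, 14 and 26 UMIs. Of the 8 neighbouring pairs, 6 overlapped, and the E16.5 values of Nos1 and Sst-high cells lie above the rest.

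The high embryonic Nos1 value of Nefl rests on 1 cell. Of the 63 UMIs, 43 came from a single cell, which also held UMIs of Neurod6 or Neurod2, and 44 came from the 15 Nos1 cells with either gene. Without that 1 cell, the log2 ratio of Nos1 over Sst-high cells at E16.5 went from 1.85 (1.48 to 2.28) to 0.33, and that of P5 over E16.5 in Nos1 cells from -3.19 (-4.10 to -2.58) to -1.67. The latter ranged from -4.23 with at least 2 Nos1 UMIs per cell to -0.70 in cells with 3000 to 8000 UMIs. In the 33 E16.5 cells with at least 3 Neurod6 UMIs and no Lhx6, Nefl stood at 132 CPM. The part of these cells in the other results of the group was not tested beyond the values given without them. In Sst-high cells Nefl fell from E16.5 to P5, with a log2 ratio of -0.88 (-1.30 to -0.56), but the sign turned when cells were thinned to 2000 UMIs (0.42) or held to 3000 to 8000 UMIs (0.48). In Sst-silent cells the ratio was 0.90 (0.15 to 1.85), and 0.48 with 10 CPM added in place of 1. Nefl also overlaps Nefm, on the other strand, which had 410, 103 and 96 UMIs in the 3 libraries.

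**Figure D2:**
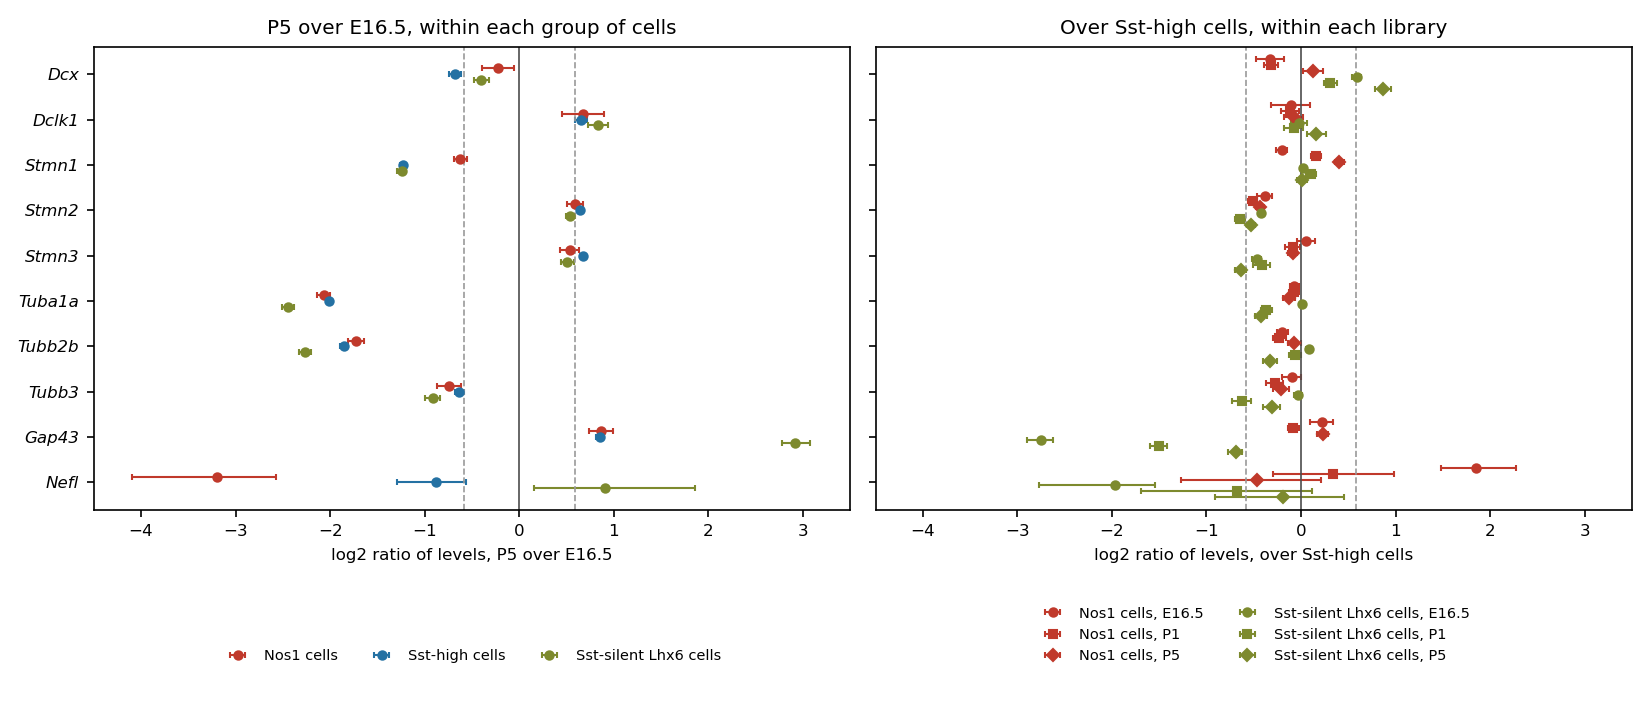
Log2 ratios of the levels of the 10 genes, at P5 over E16.5 within each group of cells (left) and over Sst-high cells within each library (right); bars are exact 95% intervals of the ratio of counts and dashed lines mark 1.5-fold. On the left, Tuba1a and Tubb2b lie between -2.44 and -1.73 in the 3 groups. On the right, all Nos1 values but Nefl at E16.5 lie between the dashed lines, while Gap43 in Sst-silent Lhx6 cells lies at -2.75, -1.51 and -0.69.

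Within a library, groups share animals, dissociation and sequencing, and the comparisons of Nos1 and of Sst-silent cells share the same Sst-high cells. Nos1 cells against Sst-high cells compare cells in which Nos1 was counted with Sst-rich cells in which it was not. Some Sst-high cells may be long-range neurons whose Nos1 mRNA was not captured. A small ratio thus need not mean that long-range neurons match the other SST neurons. At E16.5 the other 6 markers of long-range neurons held 37784 UMIs in Sst-high cells and 7738 in Nos1 cells. This mixing was not tested. At E16.5, 0 members were lower in Nos1 cells (13.2% of 10749 genes were) and 1 was higher, Nefl (9.26% of genes). At P1, 0 were lower (7.54% of 9838 genes) and 0 higher (5.21%). At P5, 0 were lower (11.9% of 9713 genes) and 0 higher (6.76%). These shares are smaller among genes of at least 500 CPM on average, at 1.95%, 3.52% and 5.50% lower and 1.56%, 2.73% and 4.81% higher.

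The median log2 ratio of the members, Nos1 over Sst-high cells, was -0.10, -0.10 and -0.08 at the 3 ages, against -0.03, -0.02 and -0.07 over all genes. Stmn2 came closest to the limit among the well-counted members, at -0.38, -0.51 and -0.44. Dcx stood at -0.33, -0.32 and 0.13 and Gap43 at 0.22, -0.08 and 0.23. The remaining members other than Nefl and Stmn1 lay between -0.28 and 0.05. Nefl stood at 0.33 (-0.29 to 0.98) at P1 and -0.46 (-1.27 to 0.22) at P5, intervals that reach past the limit. The P1 value turned to -2.18 with over 1000 genes and under 5% mitochondrial UMIs per cell, to -0.64 with cells thinned to 2000 UMIs and to -0.70 with cells of 3000 to 8000 UMIs. Of its 34 UMIs in P1 Nos1 cells, 18 came from the 20 cells with Neurod6 or Neurod2, so no direction is read from it.

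The embryonic comparison moved with the scaling, with the rule for Nos1 cells, with depth and with the cells kept. With TMM factors the median of all genes at E16.5, Nos1 over Sst-high cells, went from -0.03 to -0.27, the share higher among genes past the limit went from 41.3% to 19.2%, and Stmn2 passed the limit (-0.64). Gap43 and Stmn3 changed direction there, to -0.04 and -0.20. With at least 2 Nos1 UMIs per cell, Gap43 passed it upward (0.68) and Dcx downward (-0.67). With cells thinned to 2000 UMIs, Stmn2 (-0.69) and Tubb2b (-0.59) passed it downward. Without cells with markers of other types, Tubb3 went from -0.10 to -0.51 and Stmn1 from -0.20 to -0.47, still within the limit. Without the 1 cell with the most Nefl UMIs, Gap43 came to -0.07, and in cells with 3000 to 8000 UMIs to 0.63, so no direction is read from it at E16.5.

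Sst-silent Lhx6 cells against Sst-high cells ask how GFP+ cells of the lineage in which no Sst was counted differ from those rich in it. As Sst-silent cells are shallower, some of them may hold Sst mRNA that was not captured. At E16.5, 2 members were lower in Sst-silent cells, Gap43 and Nefl (9.73% of 11012 genes), and 1 was higher, Dcx (4.34%). At P1, 4 were lower, Stmn2, Tubb3, Gap43 and Nefl (12.3% of 9704 genes), and 0 were higher (5.98%). At P5, 2 were lower, Stmn3 and Gap43 (7.85% of 9683 genes), and 1 was higher, Dcx (7.02%). Among genes of at least 500 CPM on average the shares were 1.90%, 6.56% and 5.28% lower and 3.80%, 5.41% and 3.87% higher. The median log2 ratio of the members was -0.02, -0.39 and -0.32, against 0.02, 0.00 and 0.02 over all genes.

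Dcx was higher in Sst-silent cells in each library, with log2 ratios over Sst-high cells of 0.59 (0.54 to 0.64), 0.31 (0.24 to 0.38) and 0.87 (0.78 to 0.95) in the order of age. The embryonic value lies on the limit, and 8 of the 17 alternatives brought it within, TMM among them (0.48). The P5 value stayed past the limit under all 17. Alternatives that redefine Nos1 cells alone cannot move these Dcx and Gap43 ratios, so fewer than 17 bear on them. Gap43 was lower in each library, at -2.75 (-2.90 to -2.63), -1.51 (-1.60 to -1.42) and -0.69 (-0.77 to -0.62). Its E16.5 and P1 values stayed past the limit under all 17 alternatives, and its P5 value came to -0.39 when cells were thinned to 2000 UMIs before grouping.

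Of the other members, Stmn2 stood at -0.42, -0.64 and -0.53 at the 3 ages and Stmn3 at -0.47, -0.42 and -0.64, below 0 throughout and close to the limit. In cells with 3000 to 8000 UMIs, Stmn2 at P1 came to -0.31 and Stmn3 at P5 to -0.45. Tubb3 passed the limit at P1 alone (-0.03, -0.63 and -0.31), and there it came to -0.21 with over 1000 genes and under 5% mitochondrial UMIs per cell. Tuba1a stood at 0.01, -0.37 and -0.42, Tubb2b at 0.08, -0.06 and -0.33 and Dclk1 at -0.02, -0.08 and 0.16. Stmn1 differed least, between 0.01 and 0.11. With TMM factors the median of all genes at E16.5 went from 0.02 to -0.08, and Stmn1 (-0.09), Tuba1a (-0.10) and Tubb2b (-0.03) changed direction there. Nefl was lower at E16.5, at -1.97 (-2.77 to -1.54), but came to -0.25 in cells with 3000 to 8000 UMIs, and it had wide intervals at P1 and P5.

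Between Sst-silent and Sst-high cells, a marker list differs in the same direction as Dcx. The 6 markers of migrating, immature interneurons (Cxcr4, Igfbpl1, Sox11, Sox4, Ackr3 and Erbb4) summed to 8336, 4469 and 1483 CPM in Sst-silent cells across E16.5, P1 and P5. The study also gives Erbb4 as a gene enriched along its branch of non-Martinotti interneurons, a type of SST cell. Erbb4 is thus not a marker of immaturity alone. In Sst-high cells they summed to 5398, 2262 and 597 CPM and in Nos1 cells to 6227, 3109 and 1270.3 CPM. Sox11 was the most abundant in each group except P5 Nos1 cells, where Sox4 was and Ackr3 was at 0. The list was highest in Sst-silent cells in each library. It was also higher in Nos1 than in Sst-high cells at each age, where Dcx was lower at E16.5 and P1 and, at P5, 549 against 502 CPM. Its part in the results for Dcx and Gap43 was not tested.

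Since Sst-silent and Sst-high cells differ in depth, cells were also thinned to 2000 UMIs each. Those that still held Lhx6, and had no Nos1 before thinning, were sorted by the Sst UMIs left. At 0, 1 to 4 and 5 or more Sst UMIs there were 709, 668 and 656 such cells in the E16.5 library, 450, 389 and 251 in the P1 library, and 477, 511 and 198 in the P5 library. Gap43 stood at 160.1, 371 and 747 CPM over these steps in the embryo, then at 792, 1306 and 1569.7 CPM at P1 and 976, 1292 and 1371 CPM by P5. It was higher with more Sst at each age, with the largest fold at E16.5 and the largest difference in CPM at P1. At P5 the intervals at 1 to 4 and at 5 or more Sst UMIs overlapped (1223 to 1363 and 1258 to 1492 CPM).

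Dcx went the other way. Its levels over the 3 steps were 1219, 1072 and 865 CPM in the embryo, then 1414, 1203 and 1048 CPM at P1 and 829, 615 and 485 CPM by P5. At P1 the Dcx intervals at 1 to 4 and at 5 or more Sst UMIs overlapped. Stmn2 stood at 2312, 2519 and 2642 CPM in the embryo, then at 1843, 2349.6 and 2327 CPM at P1 and 3404, 3951 and 4677 CPM by P5. Stmn3 stood at 1165, 1206 and 1341 CPM in the embryo, at 676, 780.2 and 940.2 CPM at P1 and at 1544, 1885 and 2770.2 CPM by P5. Of the listed markers read at these steps, Sox11 stood at 4451, 4418 and 4161 CPM in the embryo, 2677, 2197 and 1966 CPM at P1 and 579.7, 405 and 354 CPM by P5. Sox4 stood at 3043, 2190.1 and 1883, then 1148, 814 and 841, then 460.2, 238 and 239.9 CPM. Erbb4, which may also mark cell type, stood at 399.9, 282 and 226, then 493, 315 and 191, then 295, 128 and 88.4 CPM. Sst itself sets the steps, and nothing is read from its level.

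**Figure D3:**
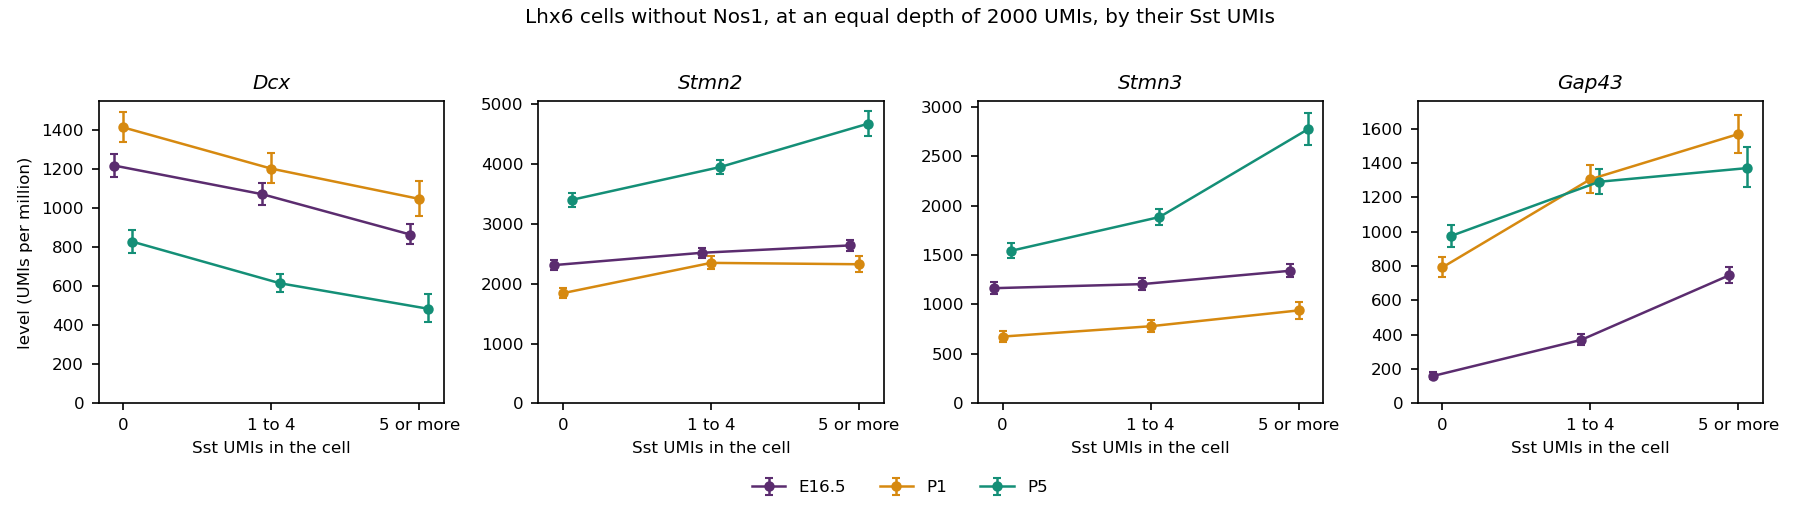
Levels of Dcx, Stmn2, Stmn3 and Gap43, in CPM, against the number of Sst UMIs left in cells thinned to 2000 UMIs, with 1 line per library. Cells held Lhx6 after thinning and no Nos1 before it. Bars are exact 95% Poisson intervals of the counts. From 0 to 5 or more Sst UMIs at E16.5, Gap43 climbs from 160 to 747 and Dcx goes from 1219 to 865.

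Over single cells at E16.5, the tubulins went together. Among cells of a group thinned to 2000 UMIs, Tuba1a and Tubb2b had a Spearman rho of 0.63 in Nos1 cells (65 cells), 0.64 in Sst-high cells (1862) and 0.63 in Sst-silent cells (703), the highest of all pairs. Tuba1a and Tubb3 had 0.36, 0.47 and 0.51, Tubb2b and Tubb3 0.45, 0.43 and 0.46, Stmn1 and Tubb2b 0.50, 0.38 and 0.38, and Stmn2 and Stmn3 0.46, 0.19 and 0.21. For Tuba1a and Tubb2b it was 0.03, 0.13 and 0.10 at P1, and 0.22, 0.36 and 0.17 at P5. The mean counts of both genes were lower at P1 and P5, which by itself lowers rho, so the ages are not compared by it. The median over all 45 pairs of members was 0.02 to 0.08 in the 9 groups. The cells of a group share a library, and thinned counts share a fixed total, so these values describe the spread of cells and have no p.

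Tuba1a varied from cell to cell in the embryo by more than counting alone gives. In E16.5 Sst-high cells the middle cell held 12 Tuba1a UMIs out of 2000, with quartiles of 8 and 19 and a highest of 55. The variance over the mean was 5.39, 4.87 and 4.91 in Nos1, Sst-high and Sst-silent cells at E16.5, where counting alone gives 1. This ratio grows with the mean, which was lower at P1 and P5, so the ages are not compared by it. Among 1259 genes in E16.5 Sst-high cells, the 5 with the highest rho to Tuba1a were Tubb2b, Tubb5 (0.49), Tubb3 (0.47), Actb (0.42) and Ubb (0.41), and the lowest was Meg3 (-0.42). These genes were chosen after their values were seen.

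The other genes of the pathway were read from lists of 115 genes, in the same comparison of P5 over E16.5. Of those counted, 32 of 96 were higher and 17 lower in Nos1 cells, 36 and 22 of 105 in Sst-high cells, and 34 and 21 of 99 in Sst-silent cells. Of all genes, 27.6% were higher and 24.3% lower in Nos1 cells, 27% and 26% in Sst-high cells, and 27.1% and 28.5% in Sst-silent cells, shares that apply to each list in turn. The listed genes' median log2 ratio was 0.21, 0.17 and 0.24, against 0.03, -0.01 and -0.04 over all genes. With TMM factors it was 0.31, -0.01 and 0.11, so its sign in Sst-high cells depends on the scaling.

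Among the other tubulins, 4 of 8 were higher and 2 lower in Nos1 cells, 3 and 2 in Sst-high cells, and 2 and 2 in Sst-silent cells, with median log2 ratios of 0.40, 0.22 and 0.34. Tuba4a and Tubb4a, isotypes of mature neurons, rose in the 3 groups: Tuba4a in Sst-high cells from 2.50 to 55.0 CPM and Tubb4a from 70.1 to 204.9 CPM. Tubb2a and Tubb5 fell there, from 1330.3 to 532 CPM and from 2823 to 989 CPM. The family thus changed in composition, with Tuba1a, Tubb2b, Tubb3, Tubb2a and Tubb5 lower and Tuba4a and Tubb4a higher in each group, also with TMM factors.

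Of the structural microtubule-associated proteins, more than the share of all genes passed the limit upward. This list, like the others, was chosen with earlier results from these data known. In Nos1 cells 7 of 12 were higher, in Sst-high cells 8 of 13 and in Sst-silent cells 7 of 12, with 0 past the limit downward, and the median log2 ratio was 0.96, 1.04 and 1.07 (1.06, 0.85 and 0.95 with TMM). Map1lc3a, which binds microtubules and autophagosomes, had log2 ratios of 1.71, 2.19 and 2.39 in Nos1, Sst-high and Sst-silent cells. Map1a, of mature dendrites and axons, had 1.54, 2.43 and 3.27, and Map4, a widely expressed lattice binder, 1.61, 1.45 and 1.48. The relatives of the members themselves were few: 2 of 4 relatives of doublecortin and stathmin were counted, with 0, 1 and 0 lower and 0 higher in the 3 groups (medians 0.26, -0.15 and 0.10).

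Plus-end and severing proteins had 4 of 12 higher and 0 lower in Nos1 cells, 4 and 2 of 15 in Sst-high cells, and 5 and 2 of 14 in Sst-silent cells (medians 0.26, 0.13 and 0.23). Clip3 stood at 1.32, 1.47 and 1.37 and Mapre3, which tracks growing ends, at 1.39, 1.08 and 1.04. In the dynein and LIS1 list, of 13 genes counted, 3 were higher and 2 lower in Nos1 cells, 6 and 2 in Sst-high cells, and 4 and 3 in Sst-silent cells (medians 0.01, 0.14 and 0.21). With TMM the Sst-high medians of these lists were -0.06 and -0.04. The dynein chains Dynll2 (2.21, 1.69 and 1.93) and Dync1i1 (1.63, 3.69 and 2.83) rose, and Pafah1b3, which binds LIS1, fell (-1.03, -1.62 and -1.57). Kinesins had 4 of 13 higher and 3 lower in Nos1 cells, 7 and 4 of 15 in Sst-high cells, and 7 and 3 of 14 in Sst-silent cells (medians 0.27, 0.56 and 0.46). The axonal motors Kif5a (1.35, 1.81 and 1.58) and Kif1a (1.33, 1.44 and 1.36) rose, as did Kif3b (0.74, 0.83 and 1.12). Kif3a (-1.02, -0.93 and -0.93), Kif5b (-1.02, -0.69 and -0.79) and Kif2a (-0.62, -0.67 and -1.05), which takes microtubule ends apart, fell.

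Genes that fold or modify tubulin split evenly, with 5 of 15 higher and 5 lower in Nos1 cells, 6 and 5 of 16 in Sst-high cells, and 6 and 6 of 16 in Sst-silent cells (medians -0.40, -0.53 and -0.28). Ttl, which adds tyrosine to alpha-tubulin, rose (0.99, 1.44 and 1.80), and so did Arl2 (1.19, 1.06 and 0.95) and Ttll7 (0.69, 1.48 and 1.47). Svbp, the partner of the enzymes that take tyrosine off, fell (-1.49, -2.33 and -1.96), as did the chaperonin subunit Tcp1 (-0.84, -0.84 and -0.96). Of 19 growth cone and actin genes counted, 5 were higher and 3 lower in Nos1 cells, 1 and 3 in Sst-high cells, and 3 and 4 in Sst-silent cells (medians -0.18, -0.26 and -0.11). Dpysl5 rose (1.58, 1.73 and 1.47), and the actin binder Dbn1 (-1.15, -0.97 and -0.97) and Marcks (-0.66, -0.81 and -0.65) fell. Of intermediate filament genes, 0 of 2 were higher and 2 lower in Nos1 cells, 1 and 3 of 4 in Sst-high cells, and 0 and 1 of 1 in Sst-silent cells. Ina, the internexin that assembles with Nefl, fell in each (-1.25, -1.44 and -1.38).

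Likeness was measured by Pearson's r of log2 levels over the 9 group and library values, among 2617 genes, and values of 1 library share its depth and animals. The genes most like Dcx were Zfp266 (0.97), Brd2 (0.96), Trio (0.96), Pds5a (0.96) and 2700081O15Rik (0.95). Among those most like Gap43 were Scg2 (0.96), Tspan7 (0.95), Chmp2b (0.95) and Prkag2 (0.94). The Nefl values include the E16.5 Nos1 level carried mostly by 1 cell, the highest value of each of its matches too: Fdft1 (0.88), Arxes1 (0.87), Rpl22l1 (0.84), Cdkn2d (0.81) and Macrod2 (0.81). They were not recomputed without that cell.

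Some smaller groups of cells cross these results. Nos1 cells with Dach1 and without Lypd1 (22, 98 and 27 cells across E16.5, P1 and P5) had Gap43 at 1241, 1976 and 2148 CPM and Dcx at 585, 589 and 356 CPM, while those with Lypd1 and without Dach1 (55 at P1 and 221 at P5) had Gap43 at 2248 and 1952 CPM and Dcx at 1062 and 592 CPM. In the 751 E16.5 Lhx6 cells with both Cxcr4 and Igfbpl1, which mark migrating interneurons, Tuba1a stood at 8812 CPM, Tubb2b at 6288 CPM, Dcx at 1085 CPM and Gap43 at 383 CPM.

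The promoters of members that moved in different directions are shown for their sequence, with the core letters bound by Sox proteins marked. RefSeq promoter sequences (build GRCm38.p6) were at hand for 5 of the 10 members, and 3 are printed: Tubb3, which fell, and Dclk1 and Stmn3, which rose in Sst-high cells. Each ends at the base before the annotated gene and reads 5′ to 3′ on the strand of the gene. Capitals mark ACAAT or its reverse complement ATTGT. The window of Tubb3 (chr8:123411303-123411423, plus strand, 121 bases) holds 2 matches, that of Dclk1 (chr3:55242114-55242363, plus strand, 250 bases) holds 1 and that of Stmn3 (chr2:181314501-181314750, minus strand, 250 bases) holds 0. Of 32851 promoter windows, 1.98% held at least 2 matches in 121 bases and 15.7% at least 1, and 27.7% held at least 1 in 250 bases. The windows of Dcx and Tuba1a, which run into the annotated genes and are not printed, hold 0 matches. A second Dclk1 window, inside the gene (chr3:55461478-55461727), holds 1, and the full 250 bases of the Tubb3 window hold 3. A match describes the letters and is not a site.
Tubb3: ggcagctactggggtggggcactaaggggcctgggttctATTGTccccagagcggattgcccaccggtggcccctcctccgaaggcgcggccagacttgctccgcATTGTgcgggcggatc
Dclk1: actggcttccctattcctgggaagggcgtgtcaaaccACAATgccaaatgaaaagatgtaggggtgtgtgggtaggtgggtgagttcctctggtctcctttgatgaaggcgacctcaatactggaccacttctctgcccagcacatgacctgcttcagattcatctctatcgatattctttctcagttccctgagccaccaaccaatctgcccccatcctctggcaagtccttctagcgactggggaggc
Stmn3: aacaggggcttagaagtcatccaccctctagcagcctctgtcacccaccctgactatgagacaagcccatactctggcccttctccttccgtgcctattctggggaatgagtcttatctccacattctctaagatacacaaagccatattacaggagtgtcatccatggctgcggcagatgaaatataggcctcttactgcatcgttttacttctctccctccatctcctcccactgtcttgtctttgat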

How the data were processed

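The deposited files hold counts, that is UMIs of 31053 genes per cell, which the authors made with Cell Ranger (3.1.0 for E16.5 and P5, 3.0.2 for P1) on build GRCm38. They come from 1 library of pooled neocortex per age, with 6 animals for E16.5 and 3 for each of P1 and P5.

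Cells with over 700 genes and under 10% mitochondrial UMIs were kept, 9433 of 12324. Nos1 cells (at least 1 Nos1 UMI), Sst-high cells (at least 5 Sst UMIs, no Nos1) and Sst-silent Lhx6 cells (at least 1 Lhx6 UMI, no Sst) were set per library. UMIs were summed per group and library and divided by the group total. Log2 ratios used 1 CPM added to each level, exact conditional binomial intervals and a limit of 1.5-fold. Genes with at least 50 UMIs over both groups gave the shares for all genes. With 1 library per age no test was made. Depth was 25638779, 15654107 and 13429055 UMIs at E16.5, P1 and P5. Small counts limit precision: the E16.5 Nos1 group holds 67 cells and 594151 UMIs.

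The members and the gene lists were chosen with earlier results from these data known. Of the other lists, genes are named when they passed the limit in the same direction in all 3 groups at P5 over E16.5, at most 3 each way per list, those with the largest smallest change. Genes like a member had at least 50 CPM on average and a range of at least 1 log2 unit. Spread over cells and the steps along Sst used cells thinned at random to 2000 UMIs, with shallower cells left out. Of the genes like a member and of the cell type markers, 1 each is not reported here.

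Doublets were left in, and an alternative left out the 5% of cells with the most UMIs. In all, 17 alternatives were set before the files were opened, and 4 were chosen after seeing the values. They cover the cell filter, the scaling (TMM and median-of-ratios factors), the group rules, depth, other cell types, the gene minimum and the fold limit. Free RNA could not be measured, as too few cells of other types were present. The calculation was tested on simulated P5 over E16.5 counts with 200 genes changed. Of these, 194, 193 and 193 passed the limit in the right direction in Nos1, Sst-high and Sst-silent cells. Unchanged genes also passed it by counting error alone, 467, 117 and 207 of them, with 7045, 11567 and 9379 genes run. Tools were Python 3.11.15, numpy 2.4.6, scipy 1.17.1, pandas 2.3.3, matplotlib 3.10.9, R 4.3.3 and edgeR 4.0.16.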

Additional observations from a re-analysis of the deposited data

Results flagged for a closer look

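For Nefl at P5 over E16.5, the log2 ratio in Nos1 cells minus that in Sst-silent Lhx6 cells was -4.10 (-3.19 and 0.90), and that in Sst-high cells minus that in Sst-silent Lhx6 cells was -1.78 (-0.88 and 0.90). The difference was not tested. Nefl had 63 UMIs in E16.5 Nos1 cells, 43 of them in 1 cell, and 25 and 26 UMIs in Sst-silent Lhx6 cells at E16.5 and P5.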

How the results depend on the processing

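No paired analysis was possible because the results come from no test: each age is 1 library of pooled animals, and libraries of different ages are not replicates of a pair of groups. The results are the counts of members past 1.5-fold in the 9 comparisons. At P5 over E16.5 these were 8 in Nos1, 10 in Sst-high and 7 in Sst-silent Lhx6 cells. At E16.5, P1 and P5 they were 1, 0 and 0 for Nos1 over Sst-high cells and 3, 4 and 3 for Sst-silent over Sst-high cells. Over 18 alternatives, 130 values stayed within 1.5 times these counts and 32 did not, and the cause was not tested. Within that margin the P5 over E16.5 counts still ran from 6 to 8 in Nos1, from 7 (TMM factors) to 10 in Sst-high and from 6 to 9 in Sst-silent cells. The values outside it follow.

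With a fold limit of 2, the P5 over E16.5 counts were 3 in Nos1, 3 in Sst-high and 4 in Sst-silent cells, and Sst-silent over Sst-high cells gave 1 at P1 and 0 at P5. With at least 2 Nos1 UMIs, Nos1 cells gave 4 at P5 over E16.5, and Nos1 over Sst-high cells gave 3, 1 and 1 in the order of age. Nos1 cells gave 5 at P5 over E16.5 without cells with other-type markers, and 5 when they had to hold Lhx6, an alternative chosen after seeing the data. TMM factors gave 2 for Nos1 over Sst-high cells at E16.5.

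Thinning cells to 2000 UMIs before grouping gave 3, 1 and 1 for Nos1 over Sst-high cells in the order of age, and 2 for Sst-silent over Sst-high cells at P1. Cells with 3000 to 8000 UMIs gave 3 at E16.5 and 1 at P1 for Nos1, and 1, 2 and 1 at the 3 ages for Sst-silent over Sst-high cells. Leaving out the 5% of cells with the most UMIs gave 2 at P1 and 1 at P5 for Sst-silent over Sst-high cells.

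With over 1000 genes and under 5% mitochondrial UMIs, P1 gave 1 for Nos1 and 2 for Sst-silent over Sst-high cells. Under 20% mitochondrial UMIs, chosen after seeing the data, gave the same 1 and 2 at P1. The mean of per-cell CPM gave 1 at P5 for Nos1 and 2 at P1 for Sst-silent over Sst-high cells. At least 10 Sst UMIs gave 1 for Nos1 and 5 for Sst-silent over Sst-high cells at P5. Without the cell with the most Nefl UMIs, also chosen after seeing the data, Nos1 over Sst-high cells gave 0 at E16.5.

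Of the log2 ratios of members past 1.5-fold, 1 changed sign: Nefl in Sst-high cells, P5 over E16.5, went from -0.88 to 0.42 with cells thinned to 2000 UMIs and to 0.48 with cells of 3000 to 8000 UMIs. Several ratios within the limit changed sign too, among them Nefl in Nos1 over Sst-high cells at P1 (from 0.33 to -2.18 at the lowest) and Dcx in Nos1 cells at P5 over E16.5 (from -0.22 to 0.05 at the highest). Of the 36 ratios past 1.5-fold, 35 kept their sign and 17 stayed past the limit under all alternatives. Alternatives that redefine Nos1 cells alone cannot move the ratios of the other groups. A second random thinning moved the sizes of the steps along Sst for Gap43 at each age and for Dcx at P5, and left their directions.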
